A study of Mus musculus with 4 samples.

Results

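The genes of the integrin receptors and of the laminins they bind were followed in mouse lens epithelium 24 h after ultraviolet B (UVB) irradiation. Members were chosen by symbol: the integrin alpha and beta subunits (Itga and Itgb), the laminin alpha, beta and gamma chains (Lama, Lamb and Lamc), and 5 partners of laminin in basement membranes, namely the nidogens Nid1 and Nid2, perlecan (Hspg2), agrin (Agrn) and dystroglycan (Dag1). Among the 19938 genes represented by at least 1 probe set with that symbol alone, 43 were members: 18 integrin alpha subunits, 9 beta subunits, Itgbl1, 10 laminin chains and the 5 partners. Itgbl1 has the letters of the rule but encodes a beta-like protein and not a receptor subunit.

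The lens epithelia came from 8-week-old male C57BL/6 mice. The right eye received UVB at 30 mJ/cm2 and the left eye, covered with foil, served as the control, so both groups shared strain, sex, age and time of collection. There were 2 experiments with 1 control and 1 UVB array each, for 4 arrays in all. Each experiment used 3 mice by the study's methods, but no source used here states whether an array pooled their RNA. The values were log2 signals, on which a difference of 1 is a doubling, and differences are given as UVB minus control.

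Integrins are membrane receptors made of an alpha and a beta subunit that link the cytoskeleton to the matrix outside the cell. Laminins are cross-shaped heterotrimers of an alpha, a beta and a gamma chain that polymerise at the cell surface into the first sheet of a basement membrane, to which nidogens and perlecan join type IV collagen. The lens capsule is a thick basement membrane of this kind, secreted in front by the lens epithelium that rests on it. Integrins of the beta1 family and dystroglycan anchor cells to laminin, whereas the alpha v integrins bind RGD-containing ligands, among them vitronectin and the latent form of TGF-beta.

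No member passed the test after adjustment. With the experiment as a block, limma gave 0 of 43 members at an adjusted p under 0.05 in either direction, where the share over all 28944 probe sets was also 0% higher and 0% lower, and the lowest adjusted p of a member was 0.357. Before adjustment, 3 members (Itgb8, Itga4 and Nid2) were higher and 2 (Itgam and Lamb3) lower at p under 0.05. These are 6.98% and 4.65% of the members, beside 5.69% and 7.71% of all probe sets, so the members' shares were near the background. Without the block, limma gave 4 members higher (Itgb8, Itga4, Nid2 and Lama4) and 3 lower (Itgam, Lamb3 and Itga2b) at an adjusted p under 0.05, beside 6.62% and 11% of all probe sets. The experiments' means are equal in the deposited values, so that fit counts a degree of freedom which the values do not hold. By the threshold of the methods, a 1.8-fold difference and an unadjusted p under 0.01, 0 members were called, beside 0.0622% of all probe sets. With 2 arrays against 2 and the pairing left aside, an exact permutation test cannot go below p = 0.333. Permuting only within the 2 experiments allows fewer arrangements, so its floor is higher still.

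The members differed little between the eyes, as did most probe sets. The UVB value was higher in both experiments for 9 members (20.9%, beside 24% of all probe sets) and lower in both for 21 (48.8%, beside 37.4%), and 13 had mixed or zero differences. Because the experiments' means are equal, these are also the members whose control and UVB arrays did not overlap. The median difference was -0.035 over the members and -0.02 over all probe sets. Of the 43 members, 29 lay within 0.1 of no difference and 42 within 0.2, the exception being Itgb8. Of all 28944 probe sets, 19158 lay within 0.1 and 25914 within 0.2. A shift of every array by its own median changed the members' counts to 6 higher and 22 lower, and equal 75th percentiles changed them to 12 and 18.

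**Figure D1:**
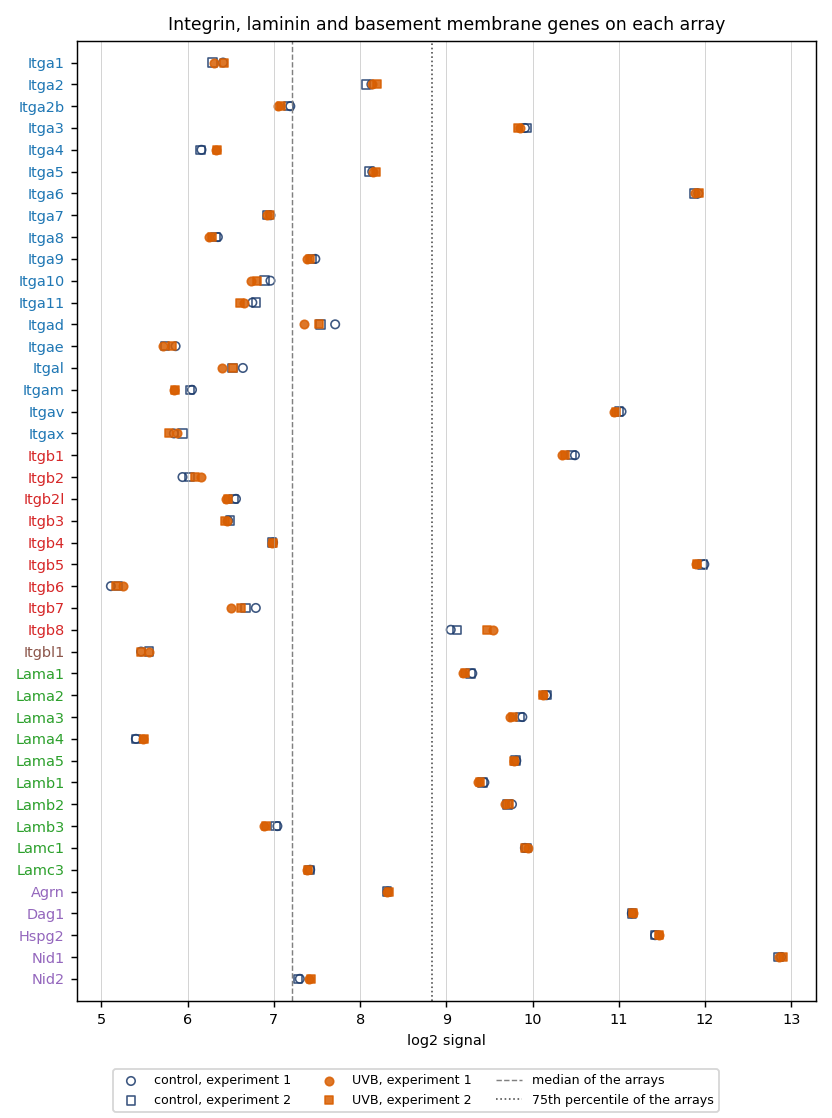
Log2 signal of the 43 members on each of the 4 arrays (circles, experiment 1; squares, experiment 2; open, control; filled, UVB), with names coloured by family (alpha subunits blue, beta subunits red, Itgbl1 brown, laminin chains green, others purple) and lines at the arrays' median and 75th percentile. Signals of different genes come from different probes and are not on a common scale; the gap between the control and UVB arrays is widest for Itgb8.

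Itgb8, the beta subunit that pairs with alpha v to bind and activate latent TGF-beta and is known in neural and retinal tissue, had the largest difference of all members. Its log2 signal was 9.05 and 9.12 on the control arrays and 9.54 and 9.47 on the UVB arrays of experiments 1 and 2. Both UVB arrays were above both control arrays (mean 9.085 ± 0.0495 for control and 9.505 ± 0.0495 for UVB, SD, n = 2). With the experiments' means equal in the deposited values, this follows from the shared sign, and the SDs of the groups had to be alike. The SDs hold only the gap between the experiments' differences. The difference was 0.49 in experiment 1 and 0.35 in experiment 2, with a mean of 0.42 or 1.34-fold (SE 0.0547, 95% interval 0.20 to 0.64, limma with the block, unadjusted p = 0.0129, adjusted p = 0.357). Without the block the adjusted p by limma was 0.0300. An increase larger than that of Itgb8 was found for 326 of the 28944 probe sets. In the alternatives the difference ran from 0.385 to 0.455.

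Marker genes of the retina were higher on the same arrays as Itgb8. Of the photoreceptor markers, 14 of 14 measured were higher in both experiments, beside 24% of all probe sets. The sum of their linear signals ran from 7325 to 8863 on the control arrays and from 13585 to 16492 on the UVB arrays. All 11 retinal pigment epithelium markers were higher in both experiments, with sums of 2498 to 2573 and 5958 to 6218. Of the 8 markers of Müller glia and astrocytes, 4 were higher and 0 lower in both experiments, beside 24% and 37.4% of all probe sets. Their sums were 18669 to 19806 and 20792 to 22234. Signals that did not exceed the array's median on both control arrays were those of 4 photoreceptor markers (Gnat2, Cnga1, Arr3 and Opn1mw), 3 pigment epithelium markers (Lrat, Best1 and Tyr) and Kcnj10 of the glial list. Rlbp1, which both glial and pigment epithelial cells express, differed by 0.77 and 0.64, and the glial glutamine synthetase gene Glul by 0.14 and 0.40. Of the 11 lens epithelium markers, 3 were higher and 4 lower in both experiments. These are 27.3% and 36.4%, near the 24% and 37.4% of all probe sets. All 11 were above the array's median on the control arrays. All 11 lens fiber markers measured were also above the array's median there. Of these, 3 were higher and 7 lower in both experiments (27.3% and 63.6%, beside 24% and 37.4% of all probe sets). Their sums were 94468 to 95604 in control and 92292 to 93502 in UVB. The lens fiber genes Birc7 (-0.28 and -0.51) and Dnase2b (-0.14 and -0.25) had the largest of these differences. The part of retinal RNA in the Itgb8 difference was not tested. In such bulk samples, fewer cells of a type and less RNA per cell cannot be told apart.

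The sequence just before the start of Itgb8 is shown because it is the member with the largest difference, beside that of Itgb5, another beta subunit that pairs with alpha v. Itgb8 lies at chr12:119162803-119238276 (GRCm38.p6, minus strand), and its 250 bases at chr12:119238277-119238526 and those of Itgb5 at chr16:33829415-33829664 (plus strand) are from RefSeq, 5′ to 3′ in the sense of the gene. Capitals mark the CCAAT box in Itgb8 and the GC boxes, GGGCGG on either strand, in Itgb5.
Itgb8: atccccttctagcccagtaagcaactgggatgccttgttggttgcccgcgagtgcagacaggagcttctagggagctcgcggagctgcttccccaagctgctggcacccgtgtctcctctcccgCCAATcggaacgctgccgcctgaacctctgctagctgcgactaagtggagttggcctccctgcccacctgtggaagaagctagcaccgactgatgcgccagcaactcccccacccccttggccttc
Itgb5: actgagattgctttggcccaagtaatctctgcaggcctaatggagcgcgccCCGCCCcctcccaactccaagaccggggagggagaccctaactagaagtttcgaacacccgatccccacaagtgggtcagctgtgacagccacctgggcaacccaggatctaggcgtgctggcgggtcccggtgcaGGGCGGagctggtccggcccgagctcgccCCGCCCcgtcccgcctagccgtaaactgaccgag
The Itgb8 window held 1 CCAAT, no GGGCGG and a GC content of 62.4%, whereas that of Itgb5 held 3 GC boxes at 65.2% GC. Neither of these windows held TAATCC, the core bound by the retinal factors Otx2 and Crx, on either strand. Neither held the AP-1 letters TGANTCA. RefSeq gave such windows for 29 of the 43 members. Of these 29 genes, CCAAT was in 7, GGGCGG in 13, TAATCC in 3 (Agrn, Itgax and Lamb2) and TGANTCA in 1 (Itgax). Over all 32851 windows the shares were 33.8% for CCAAT, 32.7% for GGGCGG, 6.25% for TAATCC and 6.75% for TGANTCA. Those are shares of single windows, whereas the 29 members are counted as genes and have 34 windows, so the units differ. The motifs were chosen after the members' values had been seen, and a match is a description of letters only.

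The other subunits of the alpha v receptors were flat or slightly lower. Itgav, the alpha v subunit itself, had log2 signals of 11.03 and 11.00 on the control arrays and 10.94 and 10.97 on the UVB arrays. Its difference was -0.09 and -0.03, with a mean of -0.060 (95% interval -0.20 to 0.08, limma). Itgb5, whose product pairs with alpha v to bind vitronectin and lies at the apical face of the retinal pigment epithelium, had 11.99 and 11.97 in control and 11.89 and 11.91 in UVB. Its mean difference was -0.080 (95% interval -0.20 to 0.04, limma), opposite in sign to that of Itgb8. Both genes were slightly lower in both experiments, by less than the test could separate from 0. Itgb3 (-0.01 and -0.06) and Itgb6 (0.14 and -0.02), the other alpha v partners apart from Itgb1, were below the median of the arrays. Among the 5 partners of alpha v, Itgb8 alone was higher in both experiments and 3 were lower, beside 24% and 37.4% of all probe sets.

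Itgb1, the shared subunit of most laminin and collagen receptors, had signals of 10.49 and 10.45 on the control arrays and 10.34 and 10.38 on the UVB arrays. The UVB arrays were lower in both experiments, with differences of -0.15 and -0.07 and a mean of -0.11 (SE 0.0385, 95% interval -0.26 to 0.04, limma with the block, adjusted p = 0.371). Itga6, which joins Itgb1 or Itgb4 in laminin receptors of the lens, had 11.92 and 11.87 in control and 11.88 and 11.93 in UVB. Its experiments went opposite ways, by -0.04 and 0.06, around a mean of 0.010 (95% interval -0.16 to 0.18, limma). Itgb4, the hemidesmosome subunit, was below the arrays' median and had differences of -0.01 and 0.01 (95% interval -0.11 to 0.11). Itga3, a laminin receptor subunit of epithelia, was lower in both experiments, with differences of -0.06 and -0.10. Itga7, the laminin receptor subunit of muscle, had -0.04 and 0.03. Of these 5 subunits of laminin receptors, 0 were higher in both experiments and 2 were lower, beside 24% and 37.4% of all probe sets. Their median was -0.005.

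Among the subunits of fibronectin and collagen receptors, only Itga4 had an unadjusted p under 0.05. Itga4, the alpha 4 subunit that binds VCAM1 and fibronectin, had signals of 6.16 and 6.15 on the control arrays and 6.33 and 6.34 on the UVB arrays, all below the arrays' median. The groups did not overlap, which follows from the shared sign where the experiments' means are equal. The arrays of a group differed by no more than 0.01, in deposited values with such equal means. Its difference was 0.17 and 0.19, with a mean of 0.18 or 1.13-fold (SE 0.0281, 95% interval 0.07 to 0.29, limma with the block, unadjusted p = 0.0189, adjusted p = 0.357). Itga9, its closest relative, differed by -0.10 and -0.02. The collagen-binding subunits were divided. Itga2 had 0.01 and 0.13, Itga1 -0.11 and 0.13, Itga10 -0.22 and -0.09, and Itga11 -0.10 and -0.18, with 95% intervals that included 0 in all 4. Of the RGD-binding subunits other than Itgav, the fibronectin receptor Itga5 had 0.01 and 0.07, Itga8 had -0.10 and -0.04, and the platelet subunit Itga2b had -0.14 and -0.09. Of the 5 platelet markers measured, 1 was higher in both experiments and 2 were lower, beside 24% and 37.4% of all probe sets. Their sums of linear signal were 454 to 456 in control and 462 in both UVB arrays.

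**Figure D2:**
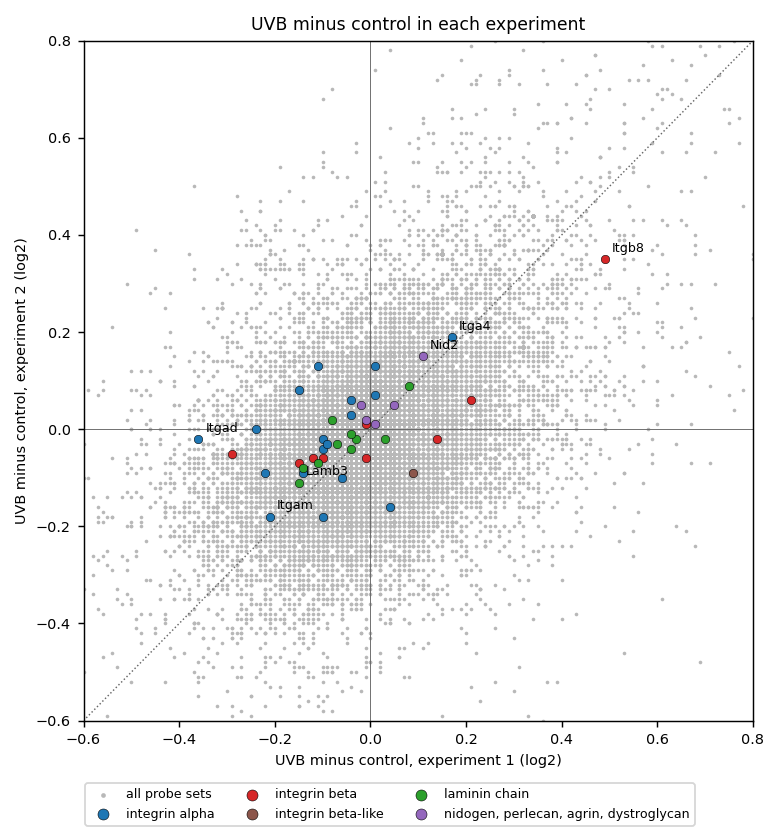
UVB minus control (log2) in experiment 1 against experiment 2, with all probe sets in grey, the members coloured by family, and a dotted line where both are equal; 243 probe sets lie outside the drawn range. Itgb8, at 0.49 and 0.35, stands apart from the other members, most of which lie within 0.2 of no difference in both experiments.

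Integrins of leukocytes were mostly low in signal and differed in direction. Of the 8 subunits (Itgal, Itgam, Itgax, Itgad, Itgae, Itgb2, Itgb2l and Itgb7), 7 were below the median of the arrays, 4 were lower in both experiments and 1, Itgb2, was higher. Over all probe sets 37.4% were lower in both experiments and 24% higher. Itga4, given above with the fibronectin receptors and not counted here, was also higher in both, by 0.17 and 0.19. Itgam, the alpha M subunit of macrophages and neutrophils, had signals of 6.05 and 6.03 on the control arrays and 5.84 and 5.85 on the UVB arrays. The UVB value was lower in both experiments, and the mean difference was -0.195 (SE 0.0291, 95% interval -0.31 to -0.08, limma with the block, unadjusted p = 0.0172, adjusted p = 0.357). Itgb2, the beta subunit that Itgam pairs with, had the opposite sign, with 5.94 and 6.02 in control and 6.15 and 6.08 in UVB, and a mean of 0.135 (95% interval -0.09 to 0.36). Itgb7, the beta subunit of gut-homing lymphocytes, had -0.29 and -0.05. Itgal, the lymphocyte subunit, had -0.24 and 0. Itgad had the widest gap between experiments, -0.36 and -0.02, and its second probe set had 0.03 and -0.04.

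Leukocyte markers did not move the way Itgam did. Of 12 measured, 8 were higher in both experiments and 1 was lower, beside 24% and 37.4% of all probe sets. Their sums of linear signal were 1189 to 1194 on the control arrays and 1378 to 1387 on the UVB arrays. The macrophage marker Cd68 differed by 0.45 and 0.73, and the receptor gene Csf1r by 0.39 and 0.31. Neither exceeded the array's median on both control arrays. Only 2 of the 12 were above the array's median on both control arrays, and the pan-leukocyte marker Ptprc was below it on each. The part of leukocyte RNA in the values of Itgam, Itgb2 and Itga4 was not tested.

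The laminin chains differed little between the eyes. Of the 10 chains, 7 were lower in both experiments and 1 higher, beside 37.4% and 24% of all probe sets. Their median was -0.035, beside -0.02 over all probe sets, and each 95% interval lay between -0.251 and 0.195. Differences over 0.3 on the log2 scale were thus outside the interval of every laminin chain. On the control arrays 7 of the 10 chains were above the array's 75th percentile.

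The chains of the laminins best known in the lens capsule, Lama1, Lama5, Lamb1, Lamb2 and Lamc1, were all measured. Lama1 had signals of 9.30 and 9.28 on the control arrays and 9.19 and 9.21 on the UVB arrays, a mean of -0.090 with lower values in both experiments. Lama5 had 9.81 and 9.80 in control and 9.78 on both UVB arrays, a mean of -0.025. Among the beta chains, Lamb1 had 9.44 and 9.42 in control and 9.37 and 9.39 in UVB, a mean of -0.050. Lamb2, the beta chain also known at synapses and in the retina, had 9.76 and 9.71 in control and 9.68 and 9.73 in UVB, so its experiments went opposite ways. Lamc1, the gamma chain of most laminins, had 9.91 and 9.93 in control and 9.94 and 9.91 in UVB, a mean of 0.005 with overlapping groups. The 95% intervals by limma of all 5 included 0.

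The remaining chains held Lamb3, the only laminin with an unadjusted p under 0.05. Lamb3 encodes the beta chain of the laminin beneath hemidesmosomes of stratified epithelia. Its signals were 7.04 and 7.02 on the control arrays and 6.89 and 6.91 on the UVB arrays, lower in both experiments. All were below the arrays' median, and the filter on dim probe sets left Lamb3 out. The mean difference was -0.13 (SE 0.0305, 95% interval -0.25 to -0.01, limma with the block, unadjusted p = 0.0436, adjusted p = 0.357), and this p was no longer under 0.05 in 4 of the alternatives. Lama3, the alpha chain of the same laminin, had -0.14 and -0.08, with an interval that included 0. Of the 9 markers of cornea and conjunctiva, 2 were higher in both experiments and 4 lower, beside 24% and 37.4% of all probe sets. Their sums of linear signal were 4030 to 4200 in control and 3905 to 4115 in UVB. The basal keratin gene Krt5 went from 6.63 to 7.73 in experiment 1 and from 7.30 to 7.07 in experiment 2. The part of surface epithelium in the Lamb3 value was not tested. Lama2, the chain of muscle and nerve, had -0.04 in both experiments. Lama4, the chain of blood vessels, had 0.08 and 0.09 and was below the arrays' median. Of the 9 blood vessel markers, 0 exceeded the array's median on both control arrays. Among them 3 were higher in both experiments and 4 lower, beside 24% and 37.4% of all probe sets. Lamc3 had -0.04 and -0.01.

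**Figure D3:**
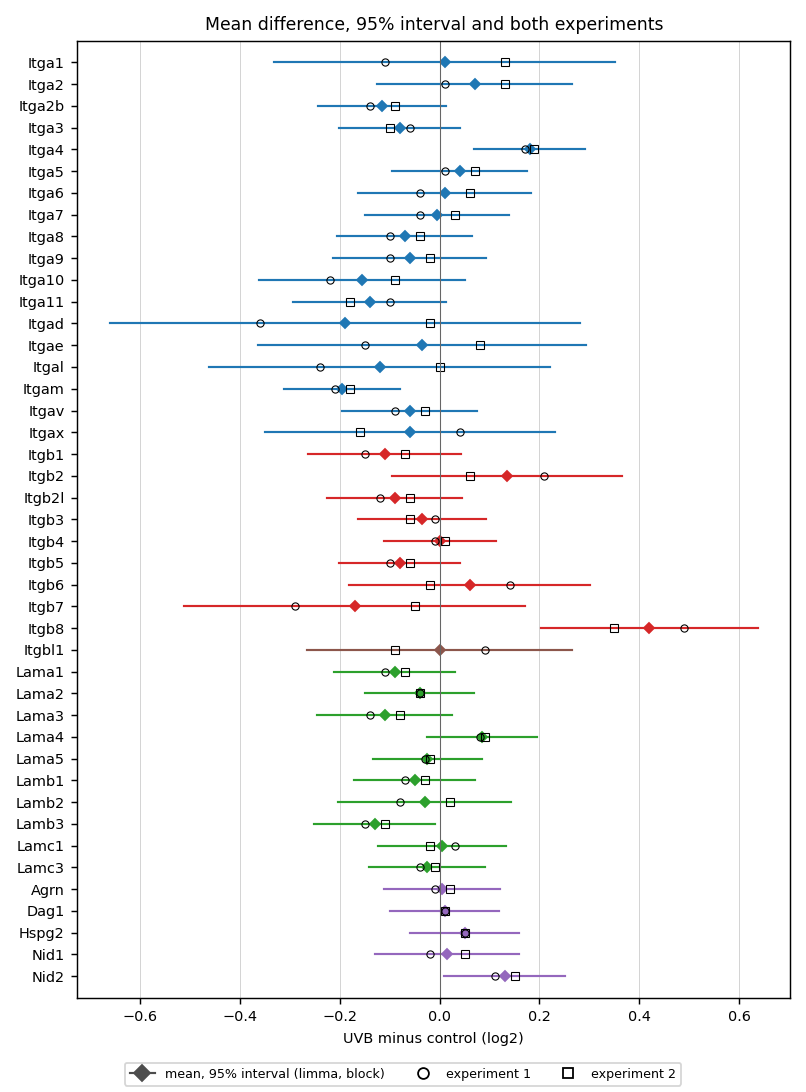
Mean UVB minus control difference (log2, diamonds) of each member with its 95% interval from limma with the experiment as block, and the difference in experiment 1 (circles) and experiment 2 (squares); colours give the families as in the plot of log2 signals. The intervals of 5 members, Itgb8, Itga4, Nid2, Itgam and Lamb3, exclude 0 before adjustment, and those of the laminin chains are all within 0.3 of it.

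The proteins that join laminin to the rest of the basement membrane had small differences, with each 95% interval between -0.129 and 0.251. Nid1, which bridges laminin and type IV collagen, had 12.88 and 12.85 on the control arrays and 12.86 and 12.90 on the UVB arrays, a mean of 0.015 with overlapping groups. Nid2, its relative, had 7.30 and 7.28 in control and 7.41 and 7.43 in UVB, higher in both experiments. The mean for Nid2 was 0.13 (SE 0.0305, 95% interval 0.01 to 0.25, limma with the block, unadjusted p = 0.0436, adjusted p = 0.357), and its p was no longer under 0.05 in 3 of the alternatives. Hspg2, the heparan sulfate proteoglycan perlecan, had 11.42 on both control arrays and 11.47 on both UVB arrays, a mean of 0.050 (95% interval -0.06 to 0.16). Agrn, the proteoglycan that clusters receptors at synapses, had 8.32 and 8.31 in control and 8.31 and 8.33 in UVB. Dag1, the non-integrin laminin receptor, had 11.15 on both control arrays and 11.16 on both UVB arrays, a mean of 0.010 (95% interval -0.10 to 0.12). Of these 5 genes 3 were higher in both experiments and 0 lower, beside 24% and 37.4% of all probe sets. The count of higher genes was 2 with median centring and 5 with equal 75th percentiles, so their common sign depended on the scaling.

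**Figure D4:**
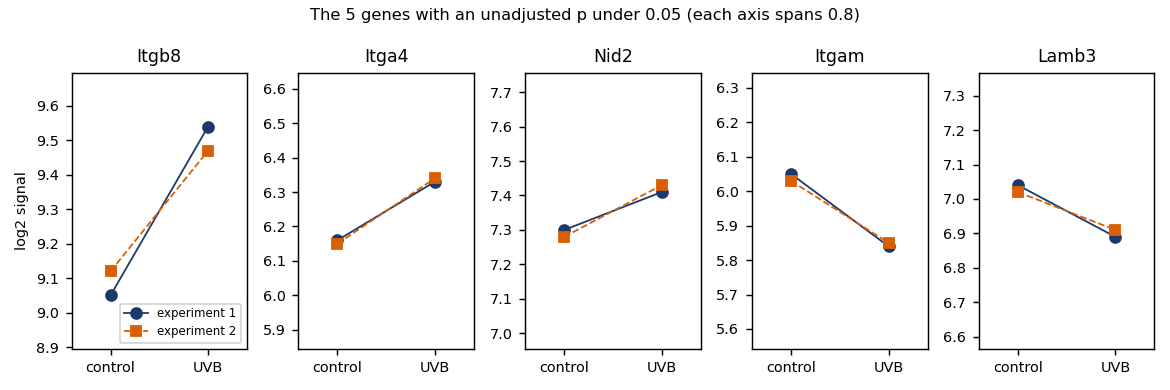
Log2 signal on the control and UVB arrays of experiment 1 (circles, solid) and experiment 2 (squares, dashed) for the 5 members with an unadjusted p under 0.05 by limma with the block; each vertical axis spans 0.8. The 5 were picked by a p that favours a small gap between the experiments, so the likeness of the 2 experiments follows from that choice. The step of Itgb8, 0.42 on average, is the largest.

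Inside the cell, integrins act through adaptors such as talin, kindlin, integrin-linked kinase and focal adhesion kinases. Of 40 genes listed for adaptors and focal adhesions, 38 had a probe set, 7 of these were higher in both experiments and 16 lower (18.4% and 42.1%, beside 24% and 37.4% of all probe sets), and the median was -0.0325. At an unadjusted p under 0.05, 1 was higher and 3 were lower (2.63% and 7.89%, beside 5.69% and 7.71%), and 0 passed after adjustment by limma with the block. Itgb1bp1, whose product ICAP-1 binds the tail of the beta1 subunit and holds it inactive, had the largest difference of the list. Its signals were 9.37 and 9.44 on the control arrays and 9.12 and 9.05 on the UVB arrays, a mean of -0.32 (SE 0.0547, unadjusted p = 0.0229, limma with the block). The UVB value was lower in both experiments. Cd9, a tetraspanin that sits beside laminin-binding integrins, had -0.15 in both experiments, and Lims1, the partner of integrin-linked kinase, had -0.13 and -0.15. Dst, a plakin of hemidesmosomes that also has neuronal forms, was higher by 0.13 and 0.17.

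Other basement membrane genes held larger differences than the laminins. Of 23 listed, 22 had a probe set, 7 were higher in both experiments and 11 lower (31.8% and 50%, beside 24% and 37.4% of all probe sets), and the median was -0.0475. At an unadjusted p under 0.05, 3 were higher and 2 lower (13.6% and 9.09%, beside 5.69% and 7.71%), and 0 passed after adjustment by limma with the block. Frem1, a matrix protein of epithelial basement membranes, had 7.47 and 7.48 on the control arrays and 7.80 on both UVB arrays, a mean of 0.325 (95% interval 0.215 to 0.435, unadjusted p = 0.00513, limma). Egflam, which encodes pikachurin, the dystroglycan ligand at photoreceptor synapses, had 7.20 and 7.35 in control and 7.82 and 7.67 in UVB, a mean of 0.47 (unadjusted p = 0.0397, limma). The photoreceptor markers, given beside Itgb8, were higher on the same arrays. Smoc1, a calcium-binding matrix protein, had 0.22 and 0.31 and was below the array's median on the control arrays. Among the lower genes, the type IV collagen chain Col4a4 had -0.17 and -0.13 and Tinagl1 had -0.14 and -0.13. The main chains of type IV collagen, Col4a1 (-0.10 and -0.05) and Col4a2 (-0.11 and -0.05), were lower in both experiments without passing the test, and were named after their values were seen.

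Dystroglycan works in a complex with dystrophin and carries sugars, built by a set of glycosyltransferases, to which laminin binds. Of 26 genes listed for this complex and its glycosylation, 20 had a probe set, 5 were higher in both experiments and 11 lower (25% and 55%, beside 24% and 37.4% of all probe sets), and the median was -0.0325. At an unadjusted p under 0.05, 1 was higher and 1 lower (5% each, beside 5.69% and 7.71%), and 0 passed after adjustment by limma with the block. Dmd, the dystrophin gene, whose short forms are made in retinal neurons and glia, had 6.81 and 6.93 on the control arrays and 7.39 and 7.27 on the UVB arrays. The control signals were below the arrays' median. The UVB value was higher in both experiments, with a mean of 0.46 (95% interval 0.12 to 0.80, unadjusted p = 0.0273, limma with the block). The part of retinal RNA in the differences of Dmd and Egflam was not tested. Musk, the agrin-dependent kinase of the muscle synapse, had -0.12 and -0.14 and was below the arrays' median.

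**Figure D5:**
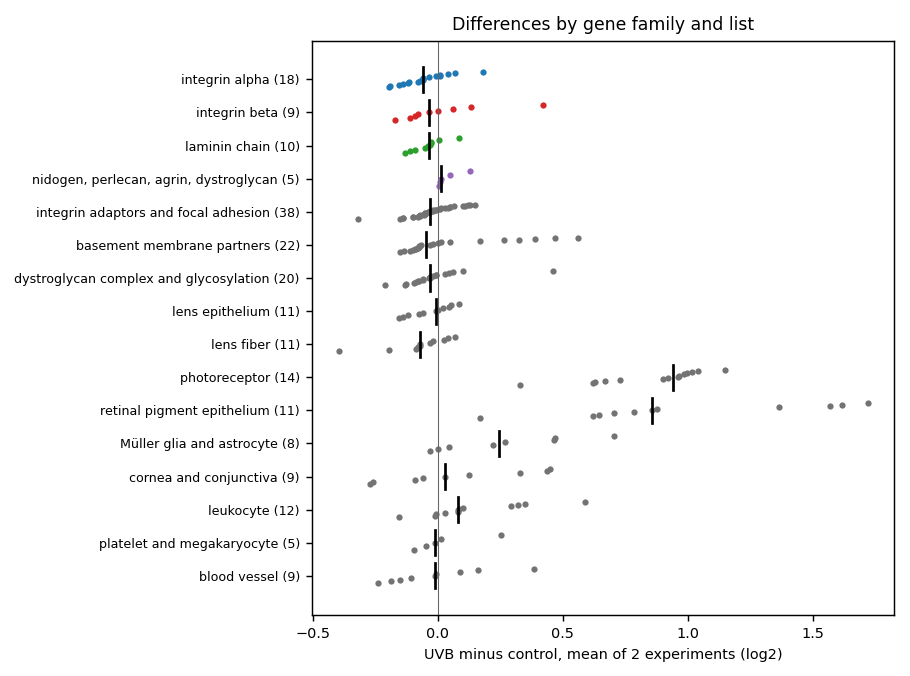
Mean UVB minus control difference (log2) of every measured gene of the member families, the 3 partner lists and the 9 marker lists, with the number of genes in brackets and a bar at each median. The 4 member families centre within 0.06 of 0, whereas the photoreceptor and pigment epithelium lists centre at 0.94 and 0.855.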

How the data were processed

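RNA of mouse lens epithelium was hybridised to 4 Affymetrix arrays. The methods name a human design, whereas the probe sets carry mouse symbols. The authors deposited log2 signals to 2 decimals, processed with Affymetrix Expression Console. The 2 experiments' array sums differed by at most 0.01 for 100% of probe sets, a step not described in the sources used here. Same-numbered arrays therefore deviated against each other (correlation -0.998). That they come from eyes of the same mice was inferred from the numbering and the study's methods, as no sample title states it.

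Of 28944 probe sets, 21789 have 1 symbol in the platform annotation, 1621 several and 5534 none. A gene was read from its probe set with the highest mean, and 3 probe sets shared by Rpl35 and Itgam were not used. UVB was compared with control over all probe sets in limma 3.58.1 (R 4.3.3) with the experiment as block (1 residual degree of freedom) and Benjamini-Hochberg adjustment, tested on simulated data. Alternatives were no block, an intensity trend, a robust prior, the methods' t-test, 3 scalings, a filter on dim probe sets and leaving out each array. The t-test and the fits with an array left out also had no block.

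The members and lists were chosen with earlier results of these data known, and the integrin subgroups after the values were seen. Array values are given for members with a mean difference over 0.2, an unadjusted p under 0.05 or a gap between experiments over 0.5, and for genes known in lens or retina. From each partner list up to 4 genes per direction with unadjusted p under 0.05 are named. Nothing says that the arrays of a group hold separate mice beyond the experiment number, so p-values measure only the spread between these 4 arrays, whose number limits the precision.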

Additional observations from a re-analysis of the deposited data

How the results depend on the processing

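Itgb8 kept its direction under all alternatives, and its adjusted p by limma ran from 0.0300 without the replicate block to 0.386. The 5 members with an unadjusted p under 0.05 kept their sign in the alternatives run, whereas with median centring the small differences of Agrn and Lamc1 turned to -0.015, those of Dag1 and Itga6 to -0.010 and that of Nid1 to -0.005. Members higher at an unadjusted p under 0.05 numbered 3 with the block, 5 with no replicate block and 6 by the methods' t-test. They numbered 2 with a robust prior, with quantile normalization, with median centring and among probe sets above the median. Members lower numbered 2 with the block, 14 without it, 10 by the t-test, 1 with equal 75th percentiles, 0 among probe sets above the median and 3 to 5 with an array left out. At an adjusted p under 0.05, no block gave 4 higher and 3 lower members and the t-test 4 and 2, where the block gave 0 and 0. The members' median difference moved from -0.035 to -0.055 with median centring and -0.015 with equal 75th percentiles.

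In the focal adhesion list, the 1 higher gene became 3 without the block, 2 by the t-test, 0 with median centring, 2 with equal 75th percentiles, 2 above the median and 2 with an array left out, and the 3 lower became 9 and 6 without the block and by the t-test. In the basement membrane list, the 3 higher became 6 without the block, 5 with a trend, 6 with a robust prior, 5 by the t-test, 6 with quantile normalization and 5 with equal 75th percentiles, and the 2 lower became 8 without the block, 1 with a robust prior, 6 by the t-test, 1 with quantiles and 3 to 5 with an array left out. In the dystroglycan list, the 1 higher became 3 without the block, 2 with a trend, 3 by the t-test, 2 with equal 75th percentiles and 2 with an array left out, and the 1 lower became 6, then 4 by the t-test, 0 with quantiles, 2 with median centring, 0 with equal 75th percentiles and 2 to 3 with an array left out. The cause of these moves was not tested. Leaving out the block counts an extra residual degree of freedom, and the fits with an array left out also had no block.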

Other observations

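Of the basement membrane genes, Fbln1, the matrix protein fibulin-1, and Col18a1, the collagen from which endostatin is cut, were higher in both experiments without passing the unadjusted threshold, and both were chosen after their values were seen. Fbln1 had log2 signals of 10.76 and 10.47 on the control arrays and 11.03 and 11.32 on the UVB arrays, a mean difference of 0.56 (SE 0.198, limma with the block, adjusted p = 0.376). Its difference was 0.27 in experiment 1 and 0.85 in experiment 2, a gap wider than that of any integrin or laminin. Col18a1 had 8.46 and 8.32 in control and 8.71 and 8.85 in UVB, a mean difference of 0.39 (SE 0.0987, limma with the block, adjusted p = 0.357).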
